A study of Asparagus officinalis with 12 samples.

Results

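The sugar transporters of the asparagus (Asparagus officinalis) stem were described here as 1 group of 63 genes, out of 35166 genes in the deposited table. Members were chosen by the words of the deposited gene description. The rule used no expression value, but it was set with earlier results of these data known. They comprised 25 SWEET genes, 8 sucrose transporter genes, 12 genes for hexose carriers (sugar transport proteins, HEX6-like hexose carriers and sugar carriers), 4 ERD6-like genes, 3 monosaccharide-sensing protein genes, 2 polyol and 3 inositol transporter genes, 4 plastidic glucose transporter genes and 2 genes described as putative UDP-sugar transporters. Genes are given by their identifiers, with positions on the Aspof.V1 assembly as the deposited table has them.

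RNA from tender stems of the cultivar ‘Fengdao 2’ was sequenced at 4 stem heights, with 3 libraries per stage. Stems of 10 cm (H-10) were sampled 3 to 6 cm above the surface, whereas stems of 25 cm (H-25), 40 cm (H-40) and 60 cm (H-60) were sampled 17 to 20 cm above it. No treatment or genetic change is named for any stage, and the plants were grown in rainproof greenhouses. Stem height and segment position thus differed together in H-10 vs. H-25 and cannot be told apart there. The other comparisons held only the height of the segment above the surface constant. The segment lay further from the tip in taller stems, so stage and distance from the tip cannot be told apart in them. The columns of the table carry the stage names H1 to H4, read here as the 4 heights in rising order. The labels do not say how many stems went into a library, so the p-values measure the spread between the 3 libraries of a stage.

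Sugars made in green tissue travel mainly as sucrose in the phloem and have to cross several membranes before a growing stem can use them. SWEET proteins let sugars pass down their gradient in either direction, whereas sucrose transporters (SUT) and the sugar transport proteins (STP) of the plasma membrane couple uptake of sucrose or hexoses to protons. Within the cell, monosaccharide-sensing proteins (also called tonoplast sugar transporters) load sugars into the vacuole, ERD6-like proteins are known in Arabidopsis as exporters from it, and plastidic glucose transporters release glucose that comes from starch breakdown.

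Of the 63 members, 38 reached 1 FPKM (fragments per kilobase of transcript, scaled to library size) in at least 3 libraries and were tested, a share of 60.3% against 57.9% of all genes. The 25 others comprised 8 genes without a fragment in any library and 17 genes with some fragments, none above 2.73 FPKM. Libraries held 13468440 to 16980659 fragments, and 1 fragment in a gene of 1 kb was worth between 0.0522 and 0.0795 FPKM. Changes were tested with limma on log2(FPKM + 1) and are given as the later minus the earlier stage. Differentially expressed genes (DEGs) had to reach 0.05 or less in adjusted p and 1 or more in absolute log2 fold change (log2FC). On this scale the changes of weakly expressed genes are understated. Comparisons that name the same stage share its 3 libraries.

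Library to library, the second H-25 library stood apart for these genes. It was above both other H-25 libraries in 28 of the 38 tested members (73.7%), against 41.4% of all tested genes, and below both in 8 (21.1%), against 43.2%. Its summed FPKM of xylem and secondary wall genes was 416, against 119 and 145 in the other H-25 libraries, and that of phloem genes was 168, against 76.2 and 55.1. Cytosolic ribosomal protein genes summed to 50020 in that library, against 94529 and 84277. The part of these differences in the results below was not tested.

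Between H-25 and H-40, 11 of the 38 tested sugar transporters rose (28.9%, against 11.9% of all tested genes) and 3 fell (7.89%, against 12.2%). Of the 11 that rose, 5 were hexose carriers. The summed level of the 63 members was 908 FPKM in H-10 (858 to 947 over libraries), 714 in H-25 (589 to 914), 1163 in H-40 (1064 to 1246) and 1233 in H-60 (1115 to 1303). The 12 hexose carrier genes summed to 108 ± 18.0 FPKM (SD, n = 3) in H-10, 43.2 ± 28.8 in H-25, 275 ± 28.7 in H-40 and 282 ± 23.0 in H-60. ERD6-like genes stood at 155 ± 10.2, 148 ± 21.0, 193 ± 18.8 and 383 ± 73.9 FPKM in the same order, so their highest sum was at H-60. SWEET genes summed to 229 ± 38.8, 227 ± 67.2, 322 ± 59.4 and 252 ± 27.4 FPKM. Sucrose transporter sums lay between 33.2 and 63.4 FPKM in every library. They were above the hexose carrier sums in the first H-25 library (35.6 against 27.3 FPKM) and the third (33.2 against 25.7 FPKM).

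**Figure D1:**
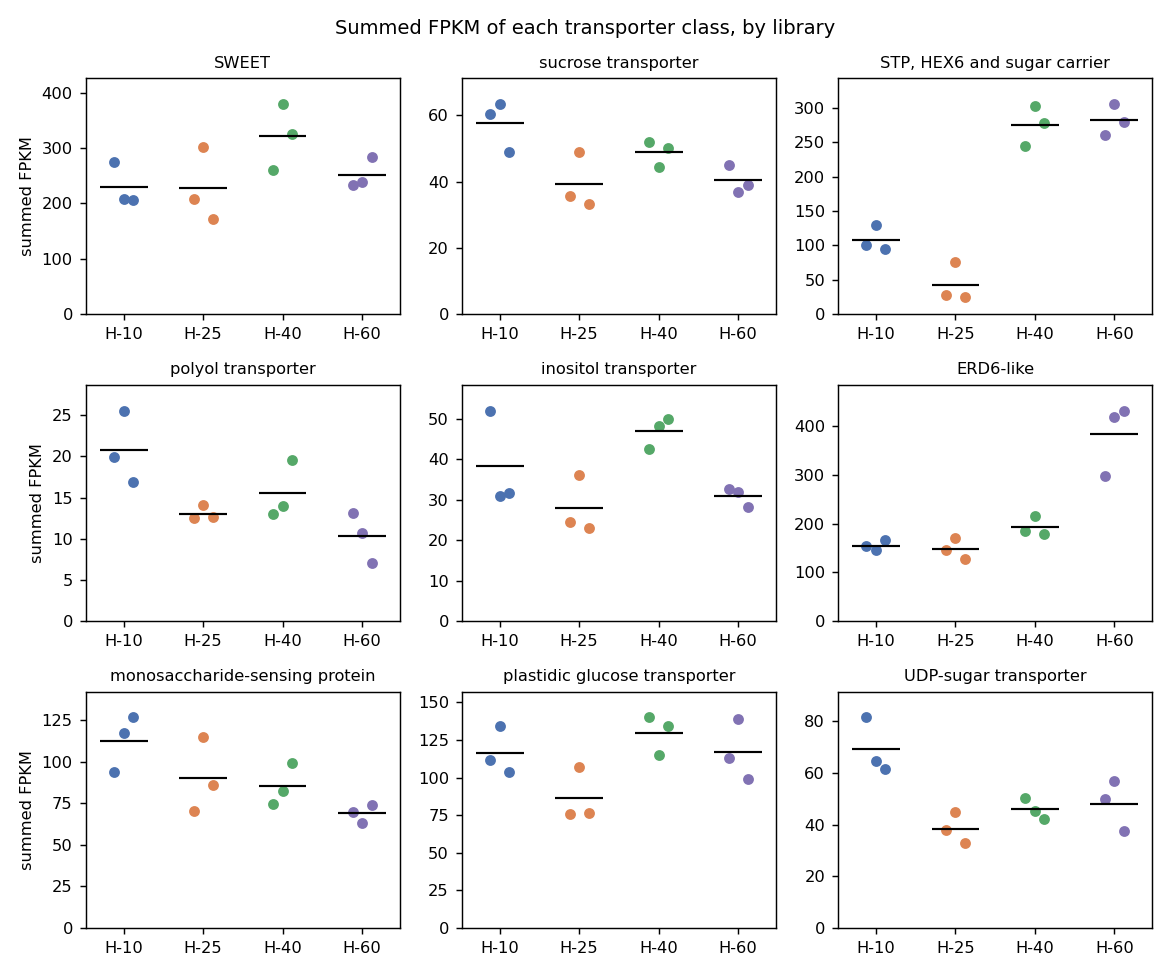
Summed FPKM of each transporter class (vertical axes) at the 4 stages (horizontal axes), with points for libraries and short horizontal lines for stage means. The hexose carrier sums of the 3 H-25 libraries lie between 25.7 and 76.4 FPKM, below the 245 to 302 FPKM of the H-40 libraries, and the ERD6-like sums are highest at H-60, at 298 to 432 FPKM.

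In H-10 vs. H-25, 8 of the 38 tested members were DEGs at a lower level at H-25 (21.1%, against 2.91% of all 20352 tested genes) and 0 were DEGs at a higher level (against 1.54%). In the limma fit, 1 member was higher at an unadjusted p under 0.05, and voom also called 0. By adjusted p alone, 9 members passed in either direction. The median log2 fold change was -0.39 over the tested members and 0 over all tested genes. This count rested on single libraries. It was 1 without the first H-25 library, 3 without the third H-25 library, 2 without the second H-10 library and 12 without the second H-25 library, and it was 1 in a fit of these 2 stages alone. With FPKM rescaled to TPM, the median over all genes moved to -0.19, 15.5% of the 1261 genes called were higher at H-25, against 34.6% of 905 on the FPKM scale, and 12 members were DEGs at a lower level.

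In H-25 vs. H-40, 11 of 38 members rose (28.9%, against 11.9% of all tested genes) and 3 fell (7.89%, against 12.2%). Their median log2 fold change was 0.31, against 0.01 over all genes. All 14 calls held in every alternative fit that tested the gene. Among the 11 that rose, SWEET3b-like (LOC109828879) was kept for testing only through its H-40 values. Among the 3 that fell, SWEET13-like (LOC109837341) and SUT1-like (LOC109833886) were kept only through their H-10 and H-25 values. In H-40 vs. H-60, 4 members rose (10.5%, against 3.02%) and 2 fell (5.26%, against 2.28%), with a median of -0.01 beside 0.01 over all genes. Among the 4, sugar transport protein 13 was tested only through its H-60 values, and a SWEET14-like gene (LOC109830614) only through its H-40 and H-60 values. Of the 2 that fell, polyol transporter 6 was tested only through its values before H-60. The 4 members that rose numbered 0 without the third H-40 library, 1 without the second H-60 library, and 2 without either the first or the third H-60 library. The number that fell was 5 without the third H-60 library. Over the whole interval from H-25 to H-60, 12 members rose (31.6%, against 16.3%) and 5 fell (13.2%, against 16.2%), with a median of 0.31 beside 0.02. The 12 include sugar transport protein 13 and the SWEET14-like gene LOC109830614. Both were kept for testing only through late libraries, where they are high, so their calls are a description. Among the 5 that fell, SWEET13-like, SUT1-like (LOC109833886) and polyol transporter 6 were kept only through earlier libraries, where they are high. Their calls are a description as well. In all, 22 of the 38 tested members were DEGs in at least 1 comparison and 16 in none. The matching share over all tested genes was not counted, for this number or for those of the classes below. H-25 vs. H-60 alone called 6615 of the 20352 tested genes.

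**Figure D2:**
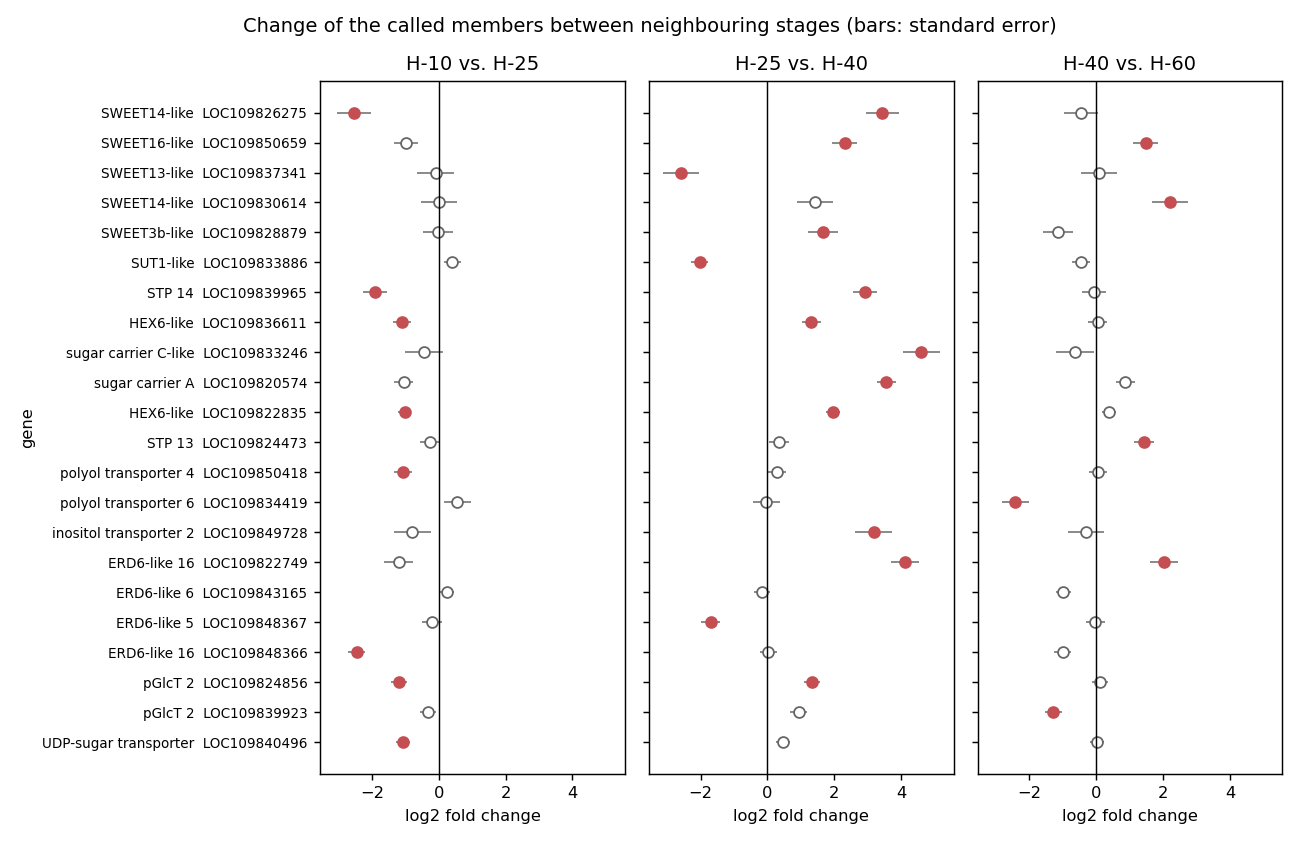
Log2 fold change on the log2(FPKM + 1) scale (horizontal axes) of the 22 members that were DEGs in at least 1 comparison (rows; pGlcT, plastidic glucose transporter) in the comparisons of neighbouring stages (panels), later minus earlier stage, with filled red points for DEGs, open points for the others and bars for 1 standard error. In H-10 vs. H-25 the 8 filled points lie left of 0, and in H-25 vs. H-40 there are 11 to the right and 3 to the left.

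Among the hexose carriers, 6 of 7 tested genes were DEGs in at least 1 comparison. From H-25 to H-40, 5 of the 7 rose (11.9% of all tested genes did) and 0 fell (12.2% of all), and over H-25 vs. H-60, 6 rose (16.3% of all) and 0 fell (16.2% of all). Among the 6, sugar transport protein 13 was kept for testing only through its H-60 values. In limma, 0 of the 7 were lower in these comparisons at an unadjusted p under 0.05, and voom gave the same counts. All 3 of the class that were DEGs in H-10 vs. H-25 were lower at H-25 (2.91% of all tested genes were). These proteins are proton symporters that take glucose and related hexoses up from the cell wall space.

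Sugar transport protein 14 (LOC109839965, chr5:84771907-84776281), whose Arabidopsis namesake carries galactose, had the highest mean of the class over the 12 libraries, although a HEX6-like gene was above it in the first and the third H-25 library. It had FPKM values of 55.8, 65.6 and 50.5 (H-10), 10.9, 32.2 and 8.19 (H-25), 111, 127 and 109 (H-40), and 104, 127 and 101 (H-60). All 3 H-25 libraries lay below all libraries of the other stages, and the second H-25 library was the highest of them. The gene fell from H-10 to H-25 (log2FC -1.91, SE 0.36, adjusted p = 0.0107) and rose from H-25 to H-40 (log2FC 2.92, SE 0.36, adjusted p = 8.42e-05). The fall was no longer called without the second H-10 library (adjusted p = 0.0517) or the first H-25 library (0.0533). At H-60 its values overlapped with those at H-40 (log2FC -0.07, adjusted p = 0.943).

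The higher of the HEX6-like hexose carriers (LOC109836611, chr4:11336949-11340096), named after a castor bean protein, had FPKM values of 29.2, 47.8 and 34.5 (H-10), 12.4, 28.8 and 12.4 (H-25), 38.8, 45.4 and 42.7 (H-40), and 42.8, 48.1 and 40.0 (H-60). Its H-10 and H-25 ranges did not overlap, with the second H-25 library close under the lowest H-10 library. The gene was a DEG in both H-10 vs. H-25 (log2FC -1.10, SE 0.28, adjusted p = 0.0402) and H-25 vs. H-40 (log2FC 1.31, SE 0.28, adjusted p = 0.0033). The first of these calls was lost in 10 fits that each left out 1 library, with adjusted p between 0.0535 and 0.160. A less abundant HEX6-like gene (LOC109822835, chr8:26193907-26197891) followed the same order of stages at 2.57, 3.1 and 2.47 (H-10), 0.573, 1.39 and 0.619 (H-25), 6.26, 6.28 and 5.73 (H-40), and 7.73, 7.85 and 8.98 (H-60) FPKM. Its ranges at H-25 did not overlap with those at H-10 (log2FC -1.02, adjusted p = 0.0151) and did not overlap with those at H-40 (log2FC 1.96, adjusted p = 3.10e-05). Its fall was lost without the second H-10 library (adjusted p = 0.0712), the first H-25 library (0.0688) or the third H-25 library (0.0733). A HEX6-like gene on the same chromosome (LOC109820260) ranged from 0.424 to 2.79 FPKM over all libraries and was a DEG in no comparison.

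Sugar carrier protein C-like (LOC109833246, chr3:18677100-18680184) showed the largest change of the class between H-25 and H-40. Its FPKM values were 5.22, 3.43 and 1.33 (H-10), 0.437, 8.04 and 0.979 (H-25), 54.6, 84.0 and 76.3 (H-40), and 39.6, 51.5 and 44.6 (H-60). The H-25 libraries were uneven, with 8.04 FPKM in the second against less than 1 in both others, yet every H-40 library was above 54 FPKM. The gene rose by 4.60 on the log2 scale (SE 0.56, adjusted p = 7.87e-05), and by 5.41 without the second H-25 library. From H-25 to H-60 the change was 3.96 (adjusted p = 1.15e-04), and 4.77 without that library. In H-10 vs. H-25 it was not called (log2FC -0.44, adjusted p = 0.707), but it was called lower without the same library (-1.25, adjusted p = 0.0329).

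Sugar carrier protein A (LOC109820574, chr8:15927801-15934906) was measured at 5.85, 6.96 and 4.62 (H-10), 1.19, 4.47 and 1.91 (H-25), 32.3, 38.1 and 42.3 (H-40), and 60.0, 69.1 and 78.3 (H-60) FPKM. Its 3 H-60 libraries were all above its H-40 libraries, and those in turn were above every earlier library. It rose from H-25 to H-40 (log2FC 3.55, SE 0.29, adjusted p = 5.67e-06) and over H-25 vs. H-60 (log2FC 4.41, adjusted p = 5.06e-07), while H-40 vs. H-60 alone (log2FC 0.86, adjusted p = 0.0928) met neither threshold. In H-10 vs. H-25 the same gene had a log2 fold change of -1.04 and missed the threshold on p (adjusted p = 0.0506). It was called lower in 7 alternative fits, among them TPM (-1.31, adjusted p = 0.0193), voom (-1.44, adjusted p = 0.0439) and the fit without the second H-25 library (-1.41, adjusted p = 0.00177).

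Sugar transport protein 13 (LOC109824473, chr9:67572284-67575916), a hexose uptake carrier in Arabidopsis, was scarce until the last stage. It had 0.509, 0.184 and 0.559 (H-10), 0.229, 0.087 and 0.22 (H-25), 0.746, 0.30 and 0.485 (H-40), and 2.96, 1.55 and 5.37 (H-60) FPKM. All 3 H-60 libraries were above the 9 earlier ones. These 3 libraries were also the ones in which it reached 1 FPKM, so it was kept for testing only through the stage where it is high and had to differ there. Its call is therefore a description. The gene was higher at H-60 than at H-40 (log2FC 1.42, SE 0.30, adjusted p = 0.0147), a call that was lost in the fit of these 2 stages alone (adjusted p = 0.0507) and without the third H-40 library (adjusted p = 0.0510). The 5 hexose carrier genes that were not tested included 3 without any fragment (a sugar transport protein 8-like, a sugar transport protein 1-like and a sugar carrier protein C-like gene).

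**Figure D3:**
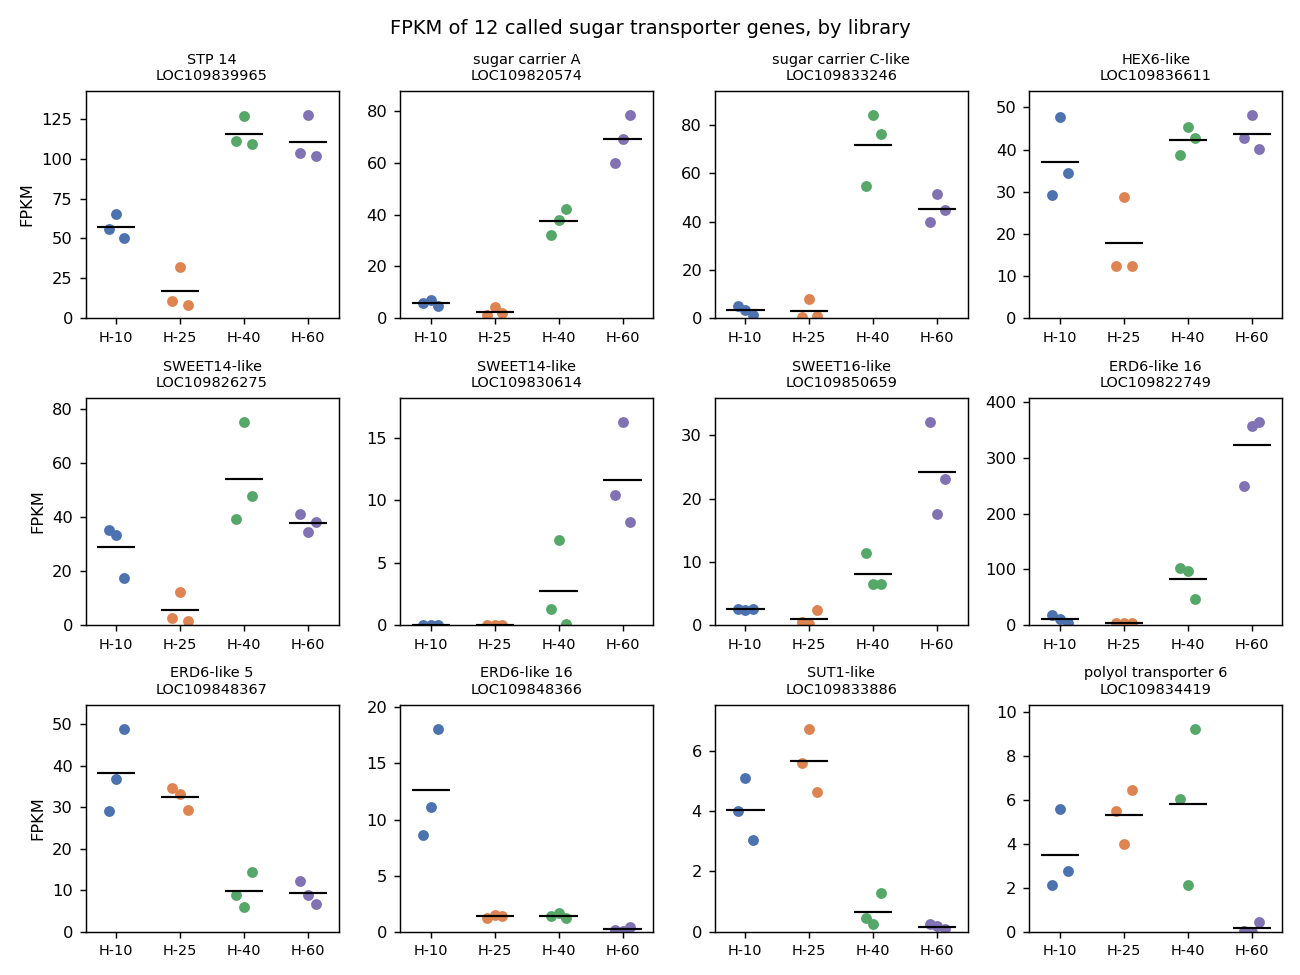
FPKM (vertical axes, own scale in each panel) of 12 members that were DEGs, at the 4 stages (horizontal axes), with points for libraries and short horizontal lines for stage means. Sugar transport protein 14 lies between 8.19 and 32.2 FPKM at H-25 and at 101 FPKM or more in every H-40 and H-60 library.

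SWEET genes made up the most numerous class, but 16 of the 25 were not tested and 5 of these had no fragment in any library. The 2 most abundant SWEET genes held between 58.1% and 90.2% of the class sum in each library. SWEET3b-like and a SWEET14-like gene (LOC109830614) were kept for testing only through H-40 or H-60 libraries, where they are high. SWEET13-like was kept only through its H-10 and H-25 libraries, where it is high. Of the 9 tested genes, 5 were DEGs in at least 1 comparison. From H-25 to H-40, 3 rose (11.9% of all tested genes did) and 1 fell (11.1%, against 12.2% of all). From H-40 to H-60, 2 rose (3.02% of all) and 0 fell (2.28% of all; 2 SWEET genes were lower at an unadjusted p under 0.05 in limma, and voom called 0).

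SWEET1a (LOC109824959, chr10:34192335-34217147), whose Arabidopsis relative SWEET1 is a glucose uniporter, was the most abundant SWEET gene on average. Its FPKM values were 143, 102 and 128 (H-10), 109.9, 164 and 102 (H-25), 109, 142 and 147 (H-40), and 53.6, 69.6 and 98.5 (H-60). It was a DEG in no comparison, although all H-60 values lay below all others. In H-25 vs. H-60 the log2 fold change was -0.77 (adjusted p = 0.0225), short of the fold threshold. SWEET4-like (LOC109840080, chr5:88229206-88232379), related to a maize hexose transporter of seed filling, had 67.0, 48.3 and 46.8 (H-10), 77.9, 105 and 52.2 (H-25), 90.8, 133 and 115 (H-40), and 82.1, 88.7 and 106 (H-60) FPKM. The ranges of its stages overlapped in part, and it too was a DEG in no comparison (log2 fold changes between -0.28 and 0.56).

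The most abundant SWEET14-like gene (LOC109826275, chr10:8065553-8067345) belongs by name to the clade of SWEET proteins that export sucrose. It stood at 35.4, 33.3 and 17.6 (H-10), 2.7, 12.2 and 1.43 (H-25), 39.4, 75.3 and 47.7 (H-40), and 41.3, 34.5 and 38.2 (H-60) FPKM. Every H-25 library was below every library of the other stages, and the second H-25 library was again the highest of its stage. The gene fell from H-10 to H-25 (log2FC -2.54, SE 0.50, adjusted p = 0.0139) and rose from H-25 to H-40 (log2FC 3.44, SE 0.50, adjusted p = 2.73e-04). Without the second H-25 library these changes were -3.25 and 4.15, and the one over H-25 vs. H-60 was 3.70 in place of 2.99. The fall was no longer called without the second H-10 library (adjusted p = 0.0600), the first H-25 library (0.0652) or the third H-25 library (0.0576).

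A SWEET14-like gene on another chromosome (LOC109830614, chr2:30581208-30583383) had fragments at the later stages only. No fragment was counted in any of the 6 early libraries (H-10 and H-25), and it had 1.29, 6.79 and 0.059 FPKM at H-40 and 10.4, 16.3 and 8.25 FPKM at H-60. Against the level of 3 fragments over the 3 libraries of a stage (0.0478 FPKM at H-25), the H-60 mean of 11.6 FPKM was at least 244-fold higher than H-25, and the H-40 mean of 2.71 FPKM at least 56.8-fold higher. Without the second H-40 library the H-40 mean was 0.674 FPKM, and this bound was 14.1-fold. It rose from H-40 to H-60 (log2FC 2.20, SE 0.53, adjusted p = 0.0282). The H-40 libraries were far apart, and the change was 2.97 without the second of them and 1.53 without the third, where it was no longer called (adjusted p = 0.0844). In all, 4 of the 6 fits that left out a library of either stage lost this call (adjusted p between 0.0698 and 0.117). The gene reached 1 FPKM in 5 libraries, all of H-40 or H-60, so it was kept for testing only through the stages where it is high. Its calls are therefore a description.

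SWEET16-like (LOC109850659, chr7:45941027-45945953) has Arabidopsis relatives at the vacuolar membrane that carry fructose. It had 2.55, 2.42 and 2.57 (H-10), 0.48, 0.137 and 2.36 (H-25), 11.3, 6.47 and 6.47 (H-40), and 32.1, 17.5 and 23.1 (H-60) FPKM. The H-40 values were all above the earlier ones, and the H-60 values were all above those at H-40. The gene was a DEG in H-25 vs. H-40 (log2FC 2.31, SE 0.37, adjusted p = 5.00e-04), H-40 vs. H-60 (log2FC 1.47, adjusted p = 0.0318) and H-25 vs. H-60 (log2FC 3.78, adjusted p = 7.93e-06). In H-40 vs. H-60 the call was lost in 5 of the 6 fits that left out a library of either stage (adjusted p between 0.0531 and 0.115).

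SWEET13-like (LOC109837341, chr4:44329708-44332162), of the same sucrose-exporting clade by name, ran the other way at 18.7, 12.2 and 3.2 (H-10), 7.35, 15.0 and 5.78 (H-25), 0.951, 0.208 and 0.764 (H-40), and 2.11, 0.228 and 0.302 (H-60) FPKM. All 6 early libraries were above all 6 late ones. It fell from H-25 to H-40 (log2FC -2.59, SE 0.55, adjusted p = 0.00292). SWEET13-like reached 1 FPKM only in the 6 early libraries and the first H-60 library. It was thus kept for testing only through the stages where it is high, and its calls are a description. SWEET3b-like (LOC109828879, chr1:106943258-106946064) was low throughout, with 0.576, 0.0416 and 0.136 (H-10), 0, 0.788 and 0 (H-25), 2.53, 6.85 and 1.04 (H-40), and 0.494, 0.373 and 1.6 (H-60) FPKM. It rose from H-25 to H-40 (log2FC 1.66, adjusted p = 0.0115), where the highest of its 3 values, 6.85 FPKM, was in the second H-40 library. SWEET3b-like reached 1 FPKM only in the 3 H-40 libraries and the third H-60 library. It was thus kept for testing only through the stage where it is high, and its call is a description. SWEET2a (LOC109840674), of a type known from the vacuole, and a SWEET1a-like gene (LOC109832087) ranged from 1.98 to 7.25 FPKM and from 0.266 to 4.75 FPKM and were DEGs in no comparison.

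Among the sucrose transporters, 5 of 8 genes were tested and 1 was a DEG. SUT proteins load sucrose into companion cells and sieve elements at the plasma membrane or release it from the vacuole. SUT2-like (LOC109835242, chr3:67348384-67380221) was the most abundant at 34.7, 34.6 and 27.7 (H-10), 20.5, 29.9 and 19.0 (H-25), 31.8, 25.6 and 31.4 (H-40), and 21.1, 15.2 and 21.3 (H-60) FPKM. Its stages overlapped in part and it was a DEG in no comparison (log2 fold changes between -0.61 and 0.36).

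SUT4-like (LOC109831294, chr1:18095565-18116812), of the type found at the vacuolar membrane, had 14.8, 18.1 and 14.0 (H-10), 7.16, 7.67 and 7.2 (H-25), 13.5, 15.7 and 13.0 (H-40), and 17.5, 16.1 and 12.8 (H-60) FPKM. The H-25 libraries were tightly grouped and lay below all others. Its log2 fold change in H-10 vs. H-25 was -0.99 (SE 0.17, adjusted p = 0.00665), just short of the fold threshold, and in H-25 vs. H-40 it was 0.85 (adjusted p = 0.00197). The first passed the threshold with a pseudocount of 0.5 (-1.04), with TPM (-1.23) and with voom on the recovered fragments (-1.08).

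The single sucrose transporter DEG was SUT1-like (LOC109833886, chr3:39551330-39565730), named for the proton symporter of phloem loading. It was measured at 4.01, 5.1 and 3.03 (H-10), 5.6, 6.73 and 4.62 (H-25), 0.464, 0.254 and 1.29 (H-40), and 0.258, 0.185 and 0.082 (H-60) FPKM. All early libraries were above 3 FPKM and all late libraries below 1.3 FPKM. The gene fell from H-25 to H-40 (log2FC -2.03, SE 0.26, adjusted p = 1.21e-04) and over H-25 vs. H-60 (log2FC -2.49, adjusted p = 1.40e-05). It reached 1 FPKM only in the early libraries and the third H-40 library. The gene was thus kept for testing only through the stages where it is high, and its calls are a description. A neighbouring SUT1-like gene (LOC109833885) lies 26.6 kb away on the same strand. Its values were 2.09, 2.05 and 2.29 (H-10), 0.579, 1.47 and 0.68 (H-25), 0.894, 1.56 and 1.35 (H-40), and 2.17, 1.23 and 0.982 (H-60) FPKM, and it was a DEG in no comparison. A further SUT4-like gene (LOC109850342) ranged from 1.09 to 4.79 FPKM, and 3 SUT1-like genes that were not tested had at most 0.526 FPKM.

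All 4 ERD6-like genes were tested and all were DEGs in at least 1 comparison, in differing directions. From H-25 to H-40, 1 of the 4 rose (11.9% of all tested genes did) and 1 fell (12.2% of all). Over H-25 vs. H-60, 1 rose (16.3% of all) and 2 fell (16.2% of all). An ERD6-like 16 gene (LOC109822749, chr8:118990013-118993292) was the member with the highest level of any sugar transporter at H-60. It had FPKM values of 18.6, 10.8 and 3.85 (H-10), 3.11, 4.19 and 3.35 (H-25), 102, 97.1 and 47.3 (H-40), and 249.8, 357 and 364 (H-60). Every H-40 library was above all earlier libraries, and every H-60 library was above those at H-40. The gene rose from H-25 to H-40 (log2FC 4.12, SE 0.43, adjusted p = 2.91e-05) and from H-40 to H-60 (log2FC 2.02, SE 0.43, adjusted p = 0.0147). Over H-25 vs. H-60 its change of 6.14 (adjusted p = 7.70e-07) exceeded that of every other tested member on the log2(FPKM + 1) scale. That scale understates the SWEET14-like gene without a fragment at H-25 (LOC109830614), at 3.61 on it but at least 244-fold by the bound above. The call in H-40 vs. H-60 was lost without the third H-40 library (1.67, adjusted p = 0.0665), the second H-60 library (0.0637) or the third H-60 library (0.0505).

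The other ERD6-like 16 gene (LOC109848366, chr7:25761912-25769879) lies 834 bases from ERD6-like 5 (LOC109848367, chr7:25754352-25761077) on the same strand. ERD6-like 16 of this pair had 8.6, 11.1 and 18.1 (H-10), 1.26, 1.47 and 1.43 (H-25), 1.41, 1.67 and 1.2 (H-40), and 0.196, 0.0352 and 0.436 (H-60) FPKM, and its 3 H-10 libraries were above all others. It fell from H-10 to H-25 (log2FC -2.45, SE 0.26, adjusted p = 7.21e-04), the single H-10 vs. H-25 call that held in every alternative fit that tested it. ERD6-like 5 stood at 29.0, 36.8 and 48.9 (H-10), 34.6, 33.2 and 29.3 (H-25), 8.87, 6.08 and 14.4 (H-40), and 12.2, 8.95 and 6.68 (H-60) FPKM. Its H-10 and H-25 ranges overlapped (log2FC -0.20, adjusted p = 0.743), and it fell in H-25 vs. H-40 (log2FC -1.70, SE 0.29, adjusted p = 7.37e-04). The difference between these 2 neighbours was not tested.

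ERD6-like 6 (LOC109843165, chr5:49791801-49805443) was abundant early, at 97.2, 86.8 and 95.0 (H-10), 107, 131 and 93.7 (H-25), 72.6, 109.8 and 117 (H-40), and 35.6, 53.4 and 60.4 (H-60) FPKM. The H-60 libraries were all below the others. It fell over H-25 vs. H-60 (log2FC -1.15, SE 0.23, adjusted p = 0.0013) and in H-40 vs. H-60 had a log2 fold change of -0.99 (adjusted p = 0.0227). Without the first H-60 library the H-25 vs. H-60 change was -0.93 and no longer met the fold threshold.

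**Figure D4:**
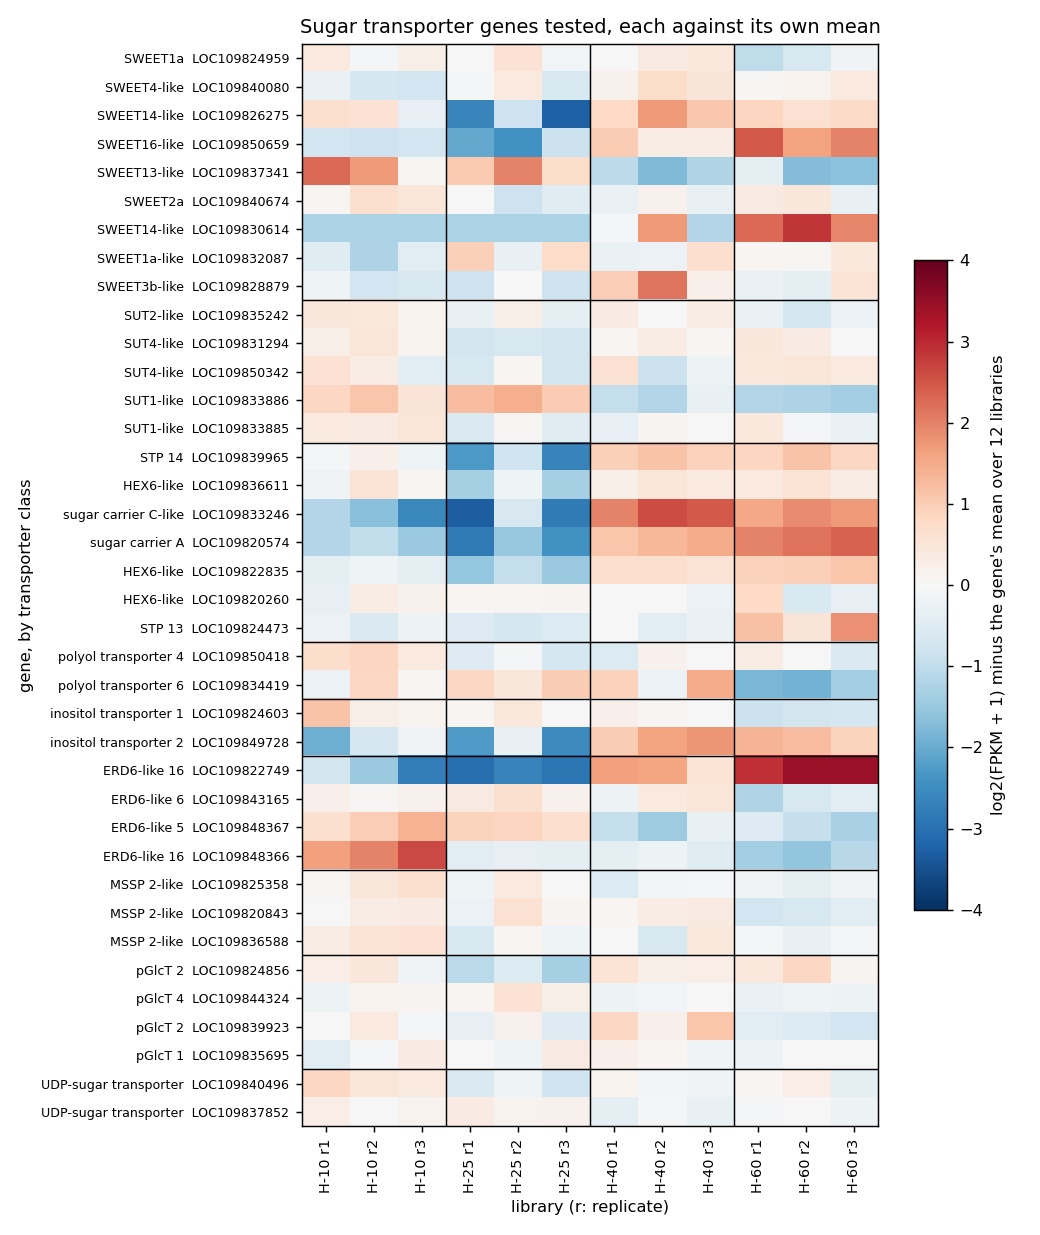
Log2(FPKM + 1) of the tested members (rows, by class) in the 12 libraries (columns), as the difference from each gene's mean over the libraries, red above and blue below it (MSSP, monosaccharide-sensing protein; pGlcT, plastidic glucose transporter). ERD6-like 16 (LOC109822749) is low in the 3 H-25 libraries (3.11 to 4.19 FPKM) and highest at H-60 (250 to 364 FPKM), and ERD6-like 5 shows the opposite order of H-25 and H-40.

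Monosaccharide-sensing proteins, which import hexoses and sucrose into the vacuole in exchange for protons, showed 0 DEGs among 3 tested genes in limma and in voom. Unadjusted p was under 0.05 for 1 gene in each of H-10 vs. H-25, H-40 vs. H-60 and H-25 vs. H-60, always at the lower level in the later stage. Of their 12 values in the limma fit, 2 passed at an adjusted p of at most 0.05, both of 1 gene and short of the fold threshold. The most abundant of them (LOC109825358, chr10:70901354-70908682) had 41.7, 54.5 and 62.4 (H-10), 35.6, 52.7 and 40.0 (H-25), 27.1, 37.3 and 38.1 (H-40), and 35.8, 30.5 and 35.7 (H-60) FPKM, with log2 fold changes between -0.31 and 0.00. The next (LOC109820843, chr1:20499009-20514727) had 26.0, 32.1 and 32.8 (H-10), 21.8, 40.1 and 27.6 (H-25), 27.2, 32.1 and 33.1 (H-40), and 14.8, 16.0 and 18.5 (H-60) FPKM. All its H-60 libraries lay below its earlier libraries, with -0.87 (adjusted p = 0.0261) in H-40 vs. H-60 and -0.78 (adjusted p = 0.00752) in H-25 vs. H-60. The remaining gene (LOC109836588) ranged from 13.0 to 31.6 FPKM.

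Inositol and polyol transporters are proton symporters for cyclic and linear sugar alcohols. Inositol transporter 2 (LOC109849728, chr7:140864749-140869336), a plasma membrane protein in Arabidopsis, had FPKM values of 1.2, 4.3 and 6.59 (H-10), 0.75, 5.81 and 0.432 (H-25), 16.2, 24.7 and 27.7 (H-40), and 20.6, 18.7 and 14.7 (H-60). The second H-25 library, at 5.81 FPKM, was above 2 of the H-10 libraries, while both other H-25 libraries were below 1 FPKM. The gene rose from H-25 to H-40 (log2FC 3.18, SE 0.55, adjusted p = 8.34e-04), by 3.88 without the second H-25 library, and over H-25 vs. H-60 (log2FC 2.87, adjusted p = 0.00103), by 3.58 without it. The gene was not called in H-10 vs. H-25 (log2FC -0.79, adjusted p = 0.44), but it was called lower without that library (-1.49, adjusted p = 0.0353).

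Inositol transporter 1 (LOC109824603, chr9:8034441-8043897), of the vacuolar membrane in Arabidopsis, stood at 50.8, 26.7 and 25.0 (H-10), 23.7, 30.4 and 22.7 (H-25), 26.1, 23.6 and 22.1 (H-40), and 11.9, 13.1 and 13.6 (H-60) FPKM. Its H-60 values were below all earlier ones, but the change over H-25 vs. H-60 (log2FC -0.93, adjusted p = 0.00604) did not reach the fold threshold. Polyol transporter 4 (LOC109850418, chr7:73481606-73484428) had 17.8, 20.0 and 14.2 (H-10), 7.0, 10.0 and 6.14 (H-25), 6.9, 11.9 and 10.3 (H-40), and 13.1, 10.7 and 6.65 (H-60) FPKM. It fell from H-10 to H-25 (log2FC -1.08, adjusted p = 0.0372), a call that was lost in 6 fits that each left out 1 library, namely the first or second of H-10, the first or the third of H-25, the third of H-40 and the second of H-60 (adjusted p between 0.0507 and 0.145). Polyol transporter 6 (LOC109834419, chr3:84878811-84880657) was nearly undetected at H-60, with 2.12, 5.59 and 2.78 (H-10), 5.52, 4.0 and 6.48 (H-25), 6.05, 2.14 and 9.25 (H-40), and 0.041, 0 and 0.43 (H-60) FPKM. It fell from H-40 to H-60 (log2FC -2.42, SE 0.41, adjusted p = 0.00429). The gene reached 1 FPKM in 9 libraries, all of H-10, H-25 or H-40. It was thus kept for testing only through the stages where it is high, and its calls are a description.

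The plastidic glucose transporters were all tested, and 2 of 4 were DEGs. Plastidic glucose transporter 2 (LOC109824856, chr1:59852825-59859058) had FPKM values of 64.5, 73.9 and 48.1 (H-10), 24.9, 36.2 and 20.6 (H-25), 78.8, 62.5 and 63.8 (H-40), and 71.1, 95.4 and 57.7 (H-60). Its 3 H-25 libraries lay below all others, as for sugar transport protein 14. The gene fell from H-10 to H-25 (log2FC -1.18, SE 0.24, adjusted p = 0.0169) and rose from H-25 to H-40 (log2FC 1.33, SE 0.24, adjusted p = 0.00123). The fall was no longer called without the first H-25 library (adjusted p = 0.0707), the third H-25 library (0.0834) or the second H-10 library (0.0754).

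A second gene of that name (LOC109839923, chr5:82954140-82961259) had its highest mean at H-40, with values of 15.0, 19.9 and 14.1 (H-10), 11.9, 17.0 and 10.2 (H-25), 27.4, 17.5 and 33.6 (H-40), and 11.1, 10.0 and 8.38 (H-60) FPKM. It fell from H-40 to H-60 (log2FC -1.29, SE 0.25, adjusted p = 0.00982), where its ranges did not overlap. Its change from H-25 to H-40 (log2FC 0.94, adjusted p = 0.0115) was short of the fold threshold and passed it without the second H-25 library (1.13) or the second H-40 library (1.19). Plastidic glucose transporter 4 (LOC109844324, chr6:15687685-15699803) had 29.3, 37.1 and 36.5 (H-10), 35.3, 50.5 and 40.1 (H-25), 29.3, 30.9 and 33.4 (H-40), and 27.8, 29.9 and 29.4 (H-60) FPKM and was a DEG in no comparison. Plastidic glucose transporter 1 (LOC109835695) ranged from 2.69 to 5.34 FPKM.

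The 2 putative UDP-sugar transporters carry, by their name, nucleotide sugars for the building of wall polysaccharides and glycoproteins and not free sugars. The more abundant (LOC109840496, chr5:105057481-105065627) had 70.3, 55.7 and 51.4 (H-10), 25.9, 34.8 and 22.3 (H-25), 43.4, 36.5 and 35.1 (H-40), and 41.0, 47.7 and 30.0 (H-60) FPKM and fell from H-10 to H-25 (log2FC -1.08, adjusted p = 0.0134). The H-10 and H-25 ranges did not overlap, but the call was lost without the first H-10 library (-0.95), the first H-25 library (adjusted p = 0.0571) or the third H-25 library (adjusted p = 0.0691). The other (LOC109837852, chr4:93612297-93618499) had 11.3, 8.99 and 10.2 (H-10), 11.8, 10.2 and 10.4 (H-25), 6.81, 8.73 and 7.22 (H-40), and 8.82, 9.06 and 7.73 (H-60) FPKM and was a DEG in no comparison.

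Several members lie next to each other. Within 300 kb there were 10 pairs, 9 of them of 1 class, that involved 19 members, and in 3 pairs both genes were tested. SWEET16-like, which rose, lies 19.7 kb from a SWEET17-like gene (LOC109846790) without a fragment in any library. On chromosome 10, the abundant SWEET14-like gene lies 240 kb from a SWEET14-like gene (LOC109825443) that was not tested and reached 2.73 FPKM in the second H-60 library. Polyol transporter 4 and a SUT4-like gene (LOC109850342) are 56.3 kb apart. Reads of near-identical copies could be divided between them by the counting, so the levels of close paralogs are uncertain.

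Markers of other tissues and cell states were counted in the same libraries. Of the 11 xylem and secondary wall genes, all tested, 10 rose from H-25 to H-40 (90.9%, against 11.9% of all tested genes), and none was at 0 in all libraries. Their summed FPKM was 272 to 325 (H-10), 119 to 416 (H-25), 2456 to 2917 (H-40) and 2155 to 3658 (H-60). Of 20 phloem genes, 14 were tested and 2 were at 0 in all libraries. The phloem genes that rose numbered 2 of 14 in H-25 vs. H-40 (14.3%, against 11.9% of all tested genes), 4 in H-40 vs. H-60 (28.6%, against 3.02%) and 7 in H-25 vs. H-60 (against 16.3%), and 0 fell, with 0 lower in these comparisons at an unadjusted p under 0.05 in limma, and the sums were 141 to 202, 55.1 to 168, 173 to 242 and 241 to 265 FPKM from H-10 to H-60. Among dividing-cell genes 11 of 13 tested fell from H-25 to H-40 (12.2% of all tested genes did). Of 209 tested cytosolic ribosomal protein genes, 188 fell in the same comparison (against the same 12.2% of all). In H-10 vs. H-25, where 8 transporters were lower, 36 of these ribosomal protein genes were higher (17.2%, against 1.54% of all) and 0 were lower (2 at an unadjusted p under 0.05 in limma), and their median share of fragments was 3.54% at H-10 and 7.33% at H-25.

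Genes of chloroplast-bearing tissue, 36 of 37 tested, had median sums of 10487 (H-10), 14319 (H-25), 18678 (H-40) and 13892 FPKM (H-60). Of them, 3 were higher in H-25 vs. H-40 (8.33%, against 11.9% of all) and 4 lower in H-40 vs. H-60 (11.1%, against 2.28%). Of 39 tested heat shock genes, 9 rose (23.1%, against 11.9% of all) and 3 fell (7.69%, against 12.2%) from H-25 to H-40. A list of genes found by pollen allergen and seed storage words in their description had 6 of 14 genes tested. It summed to between 734 and 1056 FPKM at H-25 and between 1558 and 2859 FPKM at H-40. From H-25 to H-40, 1 of the 6 rose (16.7%, against 11.9% of all) and 3 fell (50%, against 12.2%). The part of these lists in the transporter results was not tested. In these whole segments, fewer cells of a type and less RNA per cell cannot be told apart.

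The enzymes on either side of transport were counted in the same way. Sucrose synthase cleaves imported sucrose, and 6 of its 8 tested genes rose from H-25 to H-40 (11.9% of all tested genes did) and 0 fell, also at an unadjusted p under 0.05 in limma and in voom. The most abundant called member, sucrose synthase 2 (LOC109845351), had 308 ± 161 (H-10, SD, n = 3), 189 ± 123 (H-25), 2745 ± 778 (H-40) and 2744 ± 239.7 (H-60) FPKM. Invertases split sucrose to the hexoses that hexose carriers take up. Of 10 tested, 3 rose (30%, against 11.9% of all) and 0 fell (12.2% of all) from H-25 to H-40, where limma had 0 lower at an unadjusted p under 0.05. The most abundant called invertase gene, of the cell wall type (LOC109823677, described as insoluble isoenzyme 3-like), had 201 ± 54.1 (H-10, SD, n = 3), 73.2 ± 42.2 (H-25), 238 ± 35.8 (H-40) and 257 ± 88.3 (H-60) FPKM. None of 5 listed invertase inhibitor genes was tested.

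Sucrose-phosphate synthase and phosphatase make sucrose, and 2 of 5 tested genes rose from H-25 to H-40 (40%, against 11.9% of all) and 0 fell (12.2% of all). Sucrose-phosphate synthase 1 (LOC109841155) was at 47.3 ± 5.3 (H-10, SD, n = 3), 34.7 ± 21.5 (H-25), 125 ± 22.8 (H-40) and 129.5 ± 12.4 (H-60) FPKM. Plasma membrane proton ATPases supply the gradient that symporters use. From H-25 to H-40, 2 of 7 rose (28.6%, against 11.9% of all) and 0 fell (12.2% of all), with 2 lower at an unadjusted p under 0.05 in limma. A plasma membrane ATPase (LOC109841344) was at 116 ± 21.9 (H-10, SD, n = 3), 75.8 ± 55.1 (H-25), 201 ± 64.5 (H-40) and 167 ± 31.6 (H-60) FPKM. Of 41 tested vacuolar proton pump genes, 3 rose (7.32%, against 11.9% of all) and 2 fell (4.88%, against 12.2%) from H-25 to H-40, and 5 rose (12.2%, against 16.3%) and 8 fell (19.5%, against 16.2%) over H-25 vs. H-60. A vacuolar pyrophosphatase (LOC109841169), which rose in both comparisons, had 366 ± 36.3 (H-10, SD, n = 3), 222 ± 105 (H-25), 768 ± 107 (H-40) and 667 ± 211 (H-60) FPKM.

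Hexose kinases trap hexoses as phosphates. From H-25 to H-40, 1 of 13 rose (7.69%, against 11.9% of all) and 1 fell (7.69%, against 12.2%). Over H-25 vs. H-60, 1 rose (7.69%, against 16.3% of all) and 3 fell (23.1%, against 16.2%). The member that rose over H-25 vs. H-60, hexokinase-2-like (LOC109847080), was not called in H-25 vs. H-40 (log2FC 0.90) and had 18.1 ± 3.91 (H-10, SD, n = 3), 12.4 ± 1.78 (H-25), 24.1 ± 5.06 (H-40) and 39.1 ± 9.02 (H-60) FPKM. Among 18 tested plastid sugar phosphate translocators 1 rose (5.56%, against 11.9% of all) and 4 fell (22.2%, against 12.2%) from H-25 to H-40. Phosphoenolpyruvate/phosphate translocator 2 (LOC109840554) had 95.3 ± 8.74 (H-10, SD, n = 3), 115 ± 19.4 (H-25), 44.5 ± 6.5 (H-40) and 49.3 ± 8.9 (H-60) FPKM. In H-10 vs. H-25, 5 of the 102 tested genes of these lists were lower (4.90%, against 2.91% of all) and 0 were higher (against 1.54%). The 5 were 2 sucrose synthase, 1 invertase, 1 hexose kinase and 1 vacuolar proton pump gene.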

How the data were processed

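Strand-specific RNA-seq libraries were made from 12 stem samples (4 stages, 3 libraries each). The authors deposited FPKM per gene. According to the submitters' notes, HISAT2, StringTie, featureCounts and DESeq2 were run. Their genome build: not given in the sources used here. Gene positions in the table equalled those of the RefSeq annotation of Aspof.V1 for all 32237 genes with a RefSeq identifier. The 4 columns of the authors' stage means were not used.

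FPKM times gene length gave whole fragments (tolerance 0.01) for 100% of values, and these were summed for the depth, used for detection floors, which cover counting error only, and tested with limma voom as an alternative. Genes with at least 1 FPKM in at least 3 libraries were kept (20352). limma 3.58.1 in R 4.3.3 was fitted to log2(FPKM + 1) of all 12 libraries with a mean per stage, with a trended variance and Benjamini-Hochberg adjustment over all tested genes. The fit was tested on simulated data. Python 3.11.15, numpy 2.4.6, pandas 2.3.3 and matplotlib 3.10.9 were used for tables and figures.

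Members and lists were chosen by description words, with earlier results of these data known. Named with values in each library were every member that was a DEG and the 2 tested members of each class with the highest mean FPKM, and, with stage means, the called gene of highest mean FPKM in each enzyme list; other genes named were chosen after their values were seen. Promoter and protein sequences were not used here. Alternatives were a pseudocount of 0.1 or 0.5, no filter, only genes averaging 5 FPKM or more, rescaling to TPM or by median-of-ratios, no fold criterion, no variance trend, only the stages compared, voom, a replicate block, and leaving out each library.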

Additional observations from a re-analysis of the deposited data

How the results depend on the processing

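No call of a sugar transporter changed direction in any alternative fit. All 45 calls over the 4 comparisons were kept with TPM, with median-of-ratios rescaling, with voom on recovered fragments and with the replicate block. Of the calls, 1 of 8 in H-10 vs. H-25, 14 of 14 in H-25 vs. H-40, 2 of 6 in H-40 vs. H-60 and 16 of 17 in H-25 vs. H-60 held in every alternative that tested the gene. With the pseudocount at 0.1, 2 members rose and 4 fell in H-40 vs. H-60. With a mean FPKM of at least 5, these numbers were 2 and 1, and 3 members fell in H-25 vs. H-60. The 32 calls whose genes were still tested under this filter were all kept, and the others were not tested. In fits of only the 2 stages compared, 1 member was lower in H-10 vs. H-25 and 2 rose in H-40 vs. H-60. Without the fold criterion, 6 members fell in H-40 vs. H-60 and 10 in H-25 vs. H-60. With each library left out in turn, the numbers higher and lower ranged from 0 to 1 and from 1 to 12 in H-10 vs. H-25, from 11 to 12 and from 3 to 3 in H-25 vs. H-40, from 0 to 4 and from 2 to 5 in H-40 vs. H-60, and from 12 to 13 and from 4 to 6 in H-25 vs. H-60. Over all genes in H-40 vs. H-60, 56.9% of called genes were higher, against 45.4% with the pseudocount at 0.1 and 42.4% with a mean FPKM of at least 5.

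With the replicate number as a block, 1 member was higher in H-10 vs. H-25, SWEET1a-like (LOC109832087, log2 fold change 1.18, adjusted p = 0.0326 in limma), and 9 were lower. Deviations of same-numbered libraries correlated at -0.09 to 0.33 over genes (median 0.11, 18 pairs), those of other numbers at -0.34 to 0.23 (median -0.06, 36 pairs), and 9 of 12 libraries correlated best with one of their own number, which the labels do not tie to a shared source. The 3 libraries per stage limit all tests, and genes near 1 FPKM rest on few fragments.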
